A study of Mus musculus with 6 samples.

Results

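A set of 10 genes of chondrogenic differentiation and of the cartilage proteoglycan matrix were followed in mouse aorta after loss of Prdm16 from smooth muscle cells. They were Acan, Vcan, Hapln1, Sox9, Sox5, Sox6, Comp, Chad, Matn3 and Cytl1, and they made up 10 of the 55487 genes in the count table. The genes were chosen by name as a family, but the family was selected on the difference between Prdm16 iSM KO and control aortas that is described here, so their own differences are given as a description and without a p-value. Bulk RNA-seq was available for 6 aortas, 3 from control and 3 from Prdm16 iSM KO male mice. All mice were on the C57BL/6 background and all carried Myh11-CreERT2, a tamoxifen-activated Cre recombinase under the promoter of smooth muscle myosin heavy chain, and all received tamoxifen. Prdm16 iSM KO mice were Prdm16 F/F, with loxP sites around exon 9, and controls were Prdm16 W/W. Recombination was induced in 8-week-old animals by 10 daily doses of 1 mg tamoxifen, interrupted by 2 days, and tissue was taken 60 days after the end of a 2-week washout. The aortas were collected after the adventitia was stripped off.

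Aggrecan (Acan) and versican (Vcan) are large chondroitin sulfate proteoglycans of the lectican family that bind hyaluronan, and link protein (Hapln1) locks that bond. The resulting hydrated gel resists compression in cartilage, and in the arterial wall it fills the space around vascular smooth muscle cells (VSMCs). SOX9 is the master transcription factor of cartilage and works with SOX5 and SOX6 at the genes of the cartilage matrix. COMP, chondroadherin (Chad) and matrilin 3 (Matn3) tie collagen fibrils to proteoglycans and cells, and Cytl1 encodes a small secreted protein with chondrogenic activity.

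The promoters of both aortic lecticans are shown because the RNA of one was lower in the knockout whereas the groups of the other overlapped. Each run is the 250 bases before the RefSeq transcription start on GRCm38.p6, written 5′ to 3′ on the strand of the gene, at chr7:79052976-79053225 (plus strand) for Acan and chr13:89742513-89742762 (minus strand) for Vcan, and neither window overlaps an annotated exon. Capitals mark the GC box GGGCGG on either strand.
Acan: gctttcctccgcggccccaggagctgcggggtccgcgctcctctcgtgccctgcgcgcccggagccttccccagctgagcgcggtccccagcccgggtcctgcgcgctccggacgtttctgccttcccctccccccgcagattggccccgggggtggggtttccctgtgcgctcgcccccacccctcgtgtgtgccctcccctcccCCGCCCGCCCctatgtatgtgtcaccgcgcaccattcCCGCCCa
Vcan: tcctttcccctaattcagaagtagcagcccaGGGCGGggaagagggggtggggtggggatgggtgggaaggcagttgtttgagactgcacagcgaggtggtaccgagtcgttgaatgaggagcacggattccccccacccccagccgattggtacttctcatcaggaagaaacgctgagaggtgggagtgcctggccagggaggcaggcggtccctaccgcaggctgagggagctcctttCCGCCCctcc
The Acan window held 3 GC boxes, of which a pair overlapped, and 74.4% G or C, above 95.4% of all windows of that length. The Vcan window held 2 GC boxes and 62.4% G or C. A GC box was present in 32.7% of the 32851 windows. The core letters bound by SOX proteins were searched on both strands as ACAAAG and as ACAATG, and also in the form AACAAT, which can overlap the one before it. Neither window contained any of them, and at least 1 was present in 29.6% of all windows. Of the 10 genes, 8 had an entry in the table of promoters. The windows of Hapln1, Chad, Cytl1 and Matn3 held no such core. The Sox5 window at chr6:143947107-143947356 held ACAATG at 154 bases before the start, and 5 of the 6 windows of Sox6 held at least 1 core. The Hapln1 window overlaps an annotated exon of Hapln1 itself, and the Sox5 window lies inside the annotated Sox5 gene. Some Sox6 windows overlap exons of Sox6 or of the antisense gene Gm45025. Sox9 and Comp had no window listed.

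The libraries held between 24911609 and 40460467 estimated counts. Values below are CPM, the count divided by the scaled total of the library in units of 1000000 reads. Fold changes are log2 ratios of Prdm16 iSM KO over control from edgeR. Their standard error (SE) is the absolute log2 fold change divided by the square root of the F statistic of the quasi-likelihood test. Gene positions are those of GENCODE M21 on mm10. Prdm16 itself lay between 179 and 223 CPM in the controls and between 79.8 and 113 CPM in the knockouts, with a log2 fold change of -1.03 (SE 0.14). The groups did not overlap. These counts cover the whole gene, whereas recombination removes the floxed exon and shifts the reading frame. They therefore do not measure how much intact Prdm16 transcript remained, which was not tested here. For the floxed exon itself, the paper reports a dramatic reduction of reads in the knockouts. Each group has 3 mice (n = 3) throughout, and the two-sided p of exact permutation tests on values of 1 gene has a floor of 0.1. In whole tissue, fewer cells of a type and less RNA per cell cannot be told apart.

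All of the 10 genes but Matn3, 9 in number, had enough counts to be tested. Of these, 4 passed a false discovery rate (FDR) of 0.05 with a fold change above 2, and all 4 were lower in the knockout: Hapln1, Sox9, Comp and Acan. Across all 16565 tested genes, 2.78% passed both limits and 7.56% passed the FDR alone. The groups did not overlap for 5 of the 10 genes, the same 4 and Sox5, beside 27.9% of all tested genes. Since the family was selected on this contrast, these counts describe the members and are no evidence about them. The median log2 fold change was -0.53 over the tested members and -0.014 over all tested genes.

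**Figure D1:**
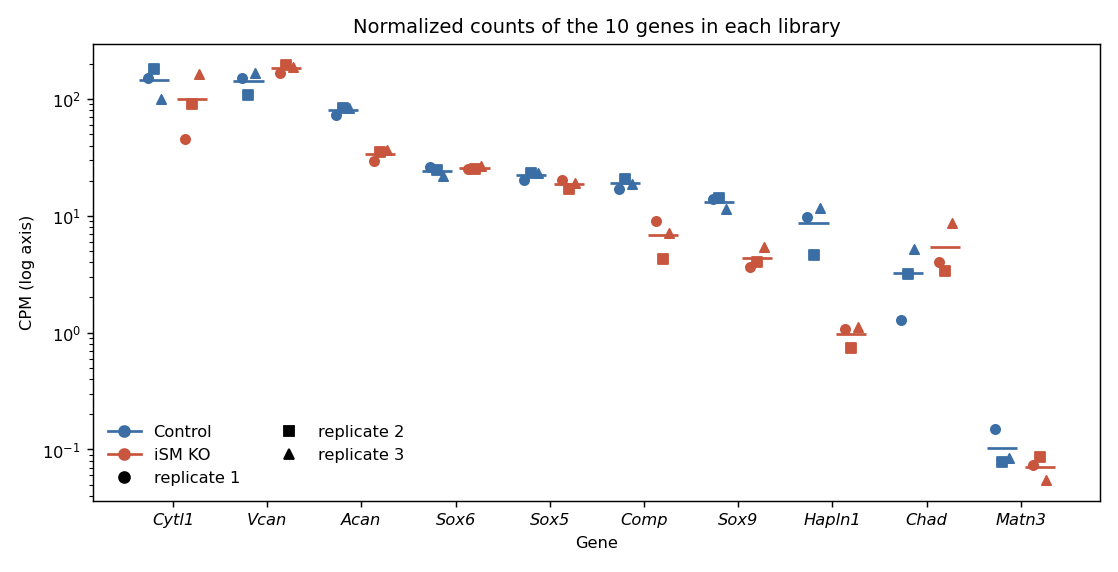
Normalized counts (CPM, log axis) of the 10 genes in the 3 control (blue) and 3 Prdm16 iSM KO (red) libraries, with the group mean as a line and the replicate as the marker shape. Acan, Comp, Sox9 and Hapln1 lie lower in all 3 knockouts, whereas the groups of Vcan, Sox6, Cytl1, Chad and Matn3 overlap and those of Sox5 nearly touch.

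Of the SOX trio, Sox9 differed and its partners differed little. Sox9 (ENSMUSG00000000567, chr11:112782224-112787760, plus strand) was at 13.9, 14.3 and 11.4 CPM in the controls and at 3.63, 4.04 and 5.39 CPM in the knockouts. Every knockout lay below every control, and the means were 13.2 ± 1.61 and 4.36 ± 0.92 CPM (SD, n = 3). The log2 fold change was -1.60 (SE 0.17). This placed Sox9 among the lowest 0.857% of all tested genes by fold change.

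Sox5, whose product lacks an activation domain of its own and assists SOX9, lies at chr6:143828425-144781977 (ENSMUSG00000041540, minus strand). It was at 20.1, 23.5 and 23.1 CPM in the controls and at 20.1, 16.9 and 19.2 CPM in the knockouts. The groups were separated by less than 0.01 CPM between the lowest control and the highest knockout, and the log2 fold change was -0.25 (SE 0.10). Exons of the antisense gene Sox5os1, at 0.26 and 0.12 CPM, overlap those of Sox5, and the genes Sox5it, Sox5os2 to Sox5os5 and Gm44068 overlap it without shared exons, at 0.46 CPM or less in either group. The strand setting of the counting is not given in the sources used here, so reads of the pair cannot be told apart.

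Sox6, the close relative of Sox5, lies at chr7:115470872-116038796 (ENSMUSG00000051910, minus strand). It was at 26, 24.7 and 21.8 CPM in the controls and at 25.1, 25.3 and 26.6 CPM in the knockouts. These groups overlapped, and the log2 fold change was 0.084 (SE 0.093). The antisense gene Sox6os also differed by less than its error, with a log2 fold change of -0.18 and an FDR of 0.837. It overlaps Sox6 without shared exons, as does the antisense gene Gm45025, at 0.58 and 0.84 CPM.

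The order of the 3 factors per kilobase depended on the length used. Over the longest coding transcript, Sox9 was at 3.20 ± 0.39, Sox5 at 3.07 ± 0.25 and Sox6 at 2.79 ± 0.25 CPM per kilobase, which is an order within the spread of the samples. By this length Sox9 made up 36.8%, 36.3% and 32.5% of the summed per-kilobase level of the trio in the controls, and 13.4%, 15.7% and 18.6% in the knockouts. Over the union of all exons, Sox9 stood at 3.20 ± 0.39 and lay above Sox5 (1.55 ± 0.13) and Sox6 (1.63 ± 0.15) in the controls. Its share was then 51.7%, 51.2% and 47.2% in the controls and 22.1%, 25.3% and 29.4% in the knockouts. With either length the share was lower in every knockout than in every control.

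Among the hyaluronan-binding proteoglycans, Acan and Vcan had fitted differences of opposite sign, with separate groups for Acan and overlapping groups for Vcan. Acan (ENSMUSG00000030607) was at 73.0, 83.1 and 83.7 CPM in the controls and at 29.4, 35.2 and 36.5 CPM in the knockouts. The groups lay far apart, at 79.9 ± 6.05 and 33.7 ± 3.75 CPM (SD, n = 3), and the log2 fold change was -1.25 (SE 0.10). The SE of Acan was small beside those of the other lower members, and each library held at least 1200 of its counts.

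Vcan (ENSMUSG00000021614), the other lectican of the set, was at 150, 108 and 167 CPM in the controls and at 167, 197 and 189 CPM in the knockouts. The control with the highest value exceeded the lowest knockout, so the groups overlapped. The means were 142 ± 30.7 and 184 ± 15.4 CPM, and the log2 fold change was 0.38 (SE 0.15). The antisense gene Gm4117, which overlaps it without shared exons, was at 13.3 and 9.59 CPM, and the pseudogene Gm16318 at 0.047 and 0.18 CPM.

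Hapln1 (ENSMUSG00000021613) had the lowest fold change of the family. It was at 9.70, 4.63 and 11.6 CPM in the controls and at 1.08, 0.75 and 1.12 CPM in the knockouts, which correspond to 325, 178 and 277 estimated counts against 44, 26 and 41. Every control exceeded every knockout, although Control 2 stood well below the other two controls. The mean was 8.80-fold higher in the controls, the log2 fold change was -3.12 (SE 0.35), and the gene lay among the lowest 0.115% of all tested genes. The pseudogene Gm8546, which overlaps it without shared exons, was at 0.58 and 0.79 CPM.

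**Figure D2:**
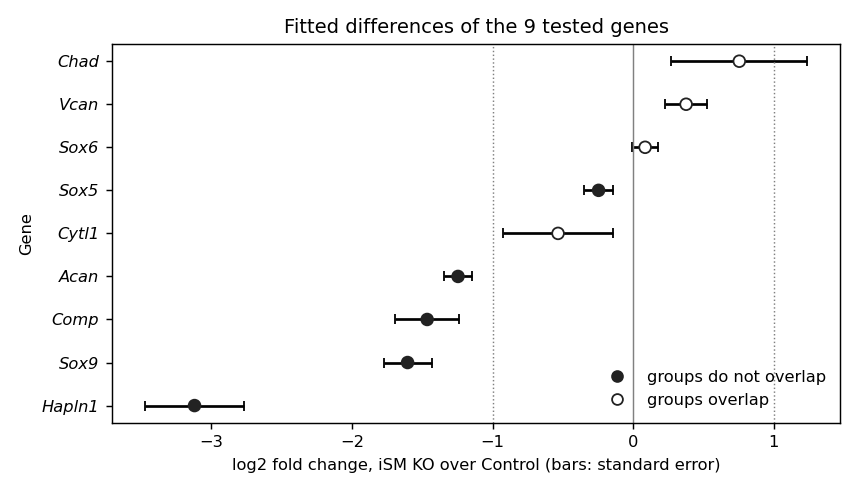
Log2 fold change of Prdm16 iSM KO over control for the 9 tested genes, with the standard error as bars, filled points where the groups do not overlap and dotted lines at a fold change of 2. Hapln1, Sox9, Comp and Acan lie beyond -1, and the other 5 lie between -0.53 and 0.75.

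Set per kilobase, Acan and Vcan lay within their spread of each other in control aorta, at 10.9 ± 0.82 and 11.4 ± 2.47 CPM per kilobase, and lay apart in the knockouts, at 4.58 ± 0.51 and 14.8 ± 1.24. Over the union of exons their control means were 10.7 and 9.81 CPM per kilobase, the reverse order. Over the longest coding transcript, Acan made up 45.03%, 56.6% and 45.8% of their summed per-kilobase level in the controls and 23.0%, 23.2% and 24.6% in the knockouts. The sum itself overlapped between the groups, at 19.98 to 24.9 CPM per kilobase in the controls and 17.4 to 20.6 in the knockouts. The level of Hapln1 per 100 units of that sum, both per kilobase, was 7.71, 4.06 and 8.18 in the controls and 1.08, 0.63 and 0.97 in the knockouts, without overlap.

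**Figure D3:**
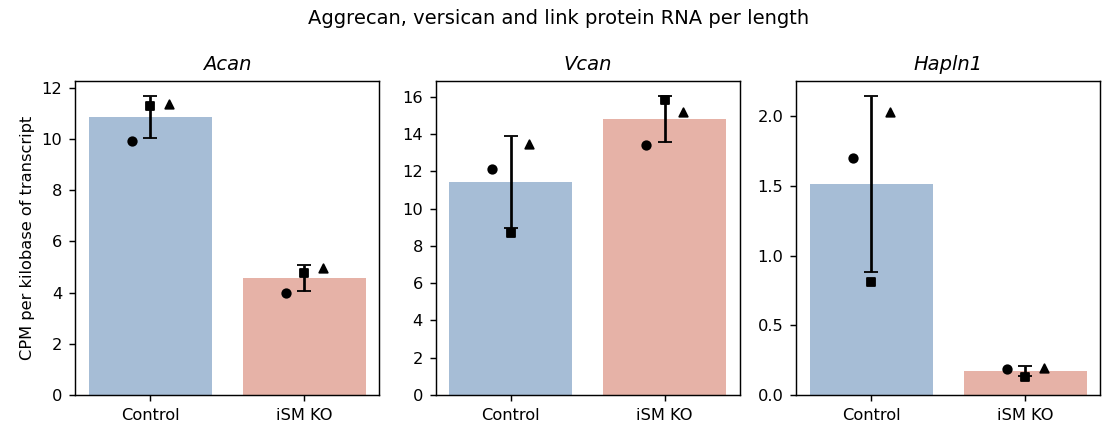
Acan, Vcan and Hapln1 in CPM per kilobase of transcript (vertical axes start at 0 and differ in scale), as mean with SD bars and the 3 libraries of each group as points, with circle, square and triangle for replicates 1, 2 and 3. Acan and Hapln1 are lower in all 3 knockouts, and Vcan overlaps between the groups.

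Hapln1 and Vcan are neighbours, which the choice of genes did not use. Vcan lies on chromosome 13 at 89655312 to 89742509 (minus strand) and Hapln1 at 89539796 to 89611652 (plus strand) on mm10, so that their ends face each other across 43.7 kb with no other coding gene between. Within this pair the fitted log2 fold changes were 0.38 and -3.12. Acan, on chromosome 7 at 79053483 to 79115099, ends 2 bp from the end of its own link protein neighbour Hapln3, which was too low to test at 0.22 ± 0.14 CPM in the controls and 0.13 ± 0.10 CPM in the knockouts. The brain lecticans Bcan and Ncan were low, at 0.56 and 1.20 CPM in the controls and 0.65 and 1.93 CPM in the knockouts. Neither passed the FDR (0.834 and 0.300 by edgeR), while Hapln2 and Hapln4 were too low to test.

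Comp, a pentameric glycoprotein that binds collagen fibrils, was the remaining matrix gene with a lower level in the knockouts (ENSMUSG00000031849, chr8:70373558-70382066, plus strand). It was at 17.0, 20.9 and 18.9 CPM in the controls and at 9.03, 4.30 and 7.17 CPM in the knockouts. The groups were clearly separated, with means of 18.9 ± 1.93 and 6.83 ± 2.38 CPM and a log2 fold change of -1.47 (SE 0.23).

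Chad, a leucine-rich protein that binds collagen and integrins, varied more within the groups than between them (ENSMUSG00000039084, chr11:94565047-94569127, plus strand). It was at 1.28, 3.20 and 5.2 CPM in the controls and at 4.05, 3.38 and 8.65 CPM in the knockouts. The groups overlapped, and the log2 fold change of 0.75 had an SE of 0.48. The coding gene Acsf2 overlaps Chad on the opposite strand without shared exons, at 11.8 and 9.83 CPM. Matn3, a matrilin of growth cartilage (ENSMUSG00000020583, chr12:8947929-8972028, plus strand), had 5, 3 and 2 counts in the controls and 3, 3 and 2 in the knockouts, a sum of 10 against 8 with exact 95% Poisson intervals of 4.80 to 18.4 and 3.45 to 15.8, which cover counting error only. A difference in Matn3 was not detectable at this depth.

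Cytl1 (ENSMUSG00000062329, chr5:37735519-37739820, plus strand) was the most abundant member per kilobase, at 148 ± 42.6 CPM per kilobase in the controls and 103 ± 60.8 in the knockouts. In CPM it was at 153, 181 and 99.4 in the controls and at 45.9, 90.5 and 163 in the knockouts. Its groups overlapped widely, and the log2 fold change was -0.53 (SE 0.39). The same libraries varied in endothelial markers: the summed level of Cdh5, Egfl7, Kdr, Pecam1, Tie1 and Vwf was 828, 988 and 473 CPM in the controls and 247, 446 and 749 CPM in the knockouts. Cytl1 amounted to 18.5, 18.3 and 21.02 CPM per 100 CPM of these markers in the controls and to 18.6, 20.3 and 21.8 in the knockouts, a range of 18.3 to 21.8 while Cytl1 itself ranged from 45.9 to 181 CPM. This ratio was formed after the values were seen, and the part of the endothelium in the level of Cytl1 was not tested.

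**Figure D4:**
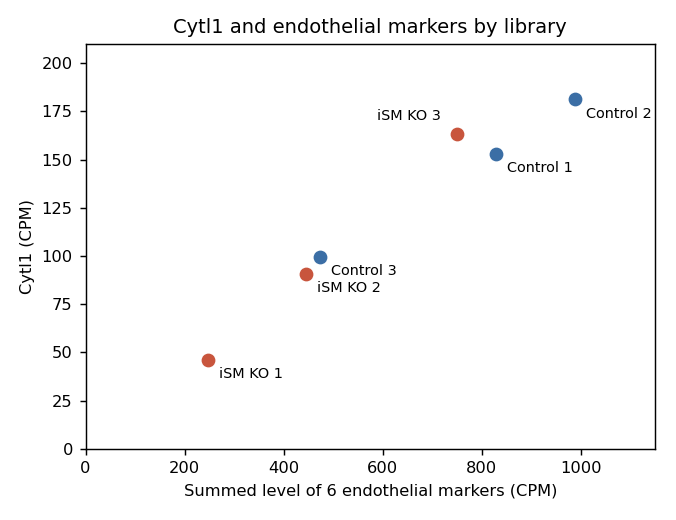
Cytl1 (CPM) against the summed level of 6 endothelial markers (CPM) in the 6 libraries, control in blue and Prdm16 iSM KO in red. The libraries with low endothelial markers, iSM KO 1, iSM KO 2 and Control 3, also have the lowest Cytl1, and the ratio of the axes stays between 18.3 and 21.8 per 100.

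In order of per-kilobase level in control aorta, Cytl1 was followed by Vcan and Acan, then by Comp at 7.84 ± 0.80, Sox9, Sox5, Sox6, Chad at 1.92 ± 1.17, Hapln1 at 1.51 ± 0.63 and Matn3 at 0.034 CPM per kilobase. By this length, Vcan and Acan could not be ordered beyond their spread, nor could Sox9, Sox5 and Sox6. Chad could not be ordered beyond its spread against these SOX factors or against Hapln1. Over the union of exons Sox9 stood above Sox5 and Sox6. Comp and the SOX factors were clearly apart. In the knockouts Cytl1, Vcan, Acan, Hapln1 (0.17 ± 0.036) and Matn3 held the same places. Chad, at 3.19 ± 1.71, stood in place 4 rather than 8, Comp, at 2.83 ± 0.99, in place 6 rather than 4, and Sox9, at 1.05 ± 0.22, in place 8 rather than 5. Acan and Chad, Chad and Sox6, Sox6 and Comp, and Comp and Sox5 were neighbours in this order whose ranges overlapped. No member had a near-identical copy elsewhere among the transcripts, at 95% identity over 100 bases.

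The genes most specific to chondrocytes were nearly absent from all aortas. Of 10 chondrocyte-restricted markers, 3 were high enough to test (Col2a1, Col10a1 and Col11a2), none passed the FDR, and Matn1 was at 0 in every library. Their summed level was 4.97 to 10.7 CPM in the controls and 6.71 to 9.34 CPM in the knockouts. Col2a1, the major collagen of cartilage and a classical target of SOX9, was at 1.495 ± 1.28 and 1.44 ± 0.87 CPM. Smooth muscle markers were abundant in every library, at a sum of 22392 to 27357 CPM in the controls and 24004 to 26415 CPM in the knockouts. One of the 7, Myocd, a coactivator of smooth muscle genes, rose from 195 ± 28.5 to 305.1 ± 20.7 CPM (FDR 0.0109 by edgeR).

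Markers of other cell types differed between the groups for some types and overlapped for others. The adipocyte markers, Adipoq, Cidec, Fabp4, Lep, Plin1 and Retn, summed to 24.8, 108 and 71.8 CPM in the controls and to 7.85, 7.08 and 11.6 CPM in the knockouts, and 4 of the 5 tested were lower at an FDR of 0.05. Adventitial fibroblast markers summed to 390, 215 and 282 CPM in the controls and 147, 164 and 233 CPM in the knockouts, which overlapped, and 1 of 8, Clec3b, was lower. All 8 fibroblast markers had a negative fold change, from -1.56 to -0.50, and Pi16 (-0.99, FDR 0.052 by edgeR) also had groups that did not overlap. This direction was shared by every tested endothelial (-0.996 to -0.27), macrophage (-1.07 to -0.23) and adipocyte marker (-3.93 to -2.69). The macrophage marker Lyz2 also had groups that did not overlap. Among the controls, whose adipocyte sums differed 4.36-fold, Hapln1 was lowest in Control 2, where adipocyte markers were highest and fibroblast markers lowest, with Dcn at 144, 62.3 and 116 CPM in the 3 controls. Between the highest and lowest of these 3 libraries, Hapln1 differed 2.51-fold, Sox9 1.26-fold, Comp 1.23-fold and Acan 1.15-fold. Valve interstitial markers summed to 86.6 to 116 CPM in the controls and 145 to 156 CPM in the knockouts, with Wif1 lower and Cpxm2 higher, from 14.6 to 86.7 CPM. Without Cpxm2, the other 5 summed to 72.6 to 95.7 CPM in the controls and 58.9 to 70.2 CPM in the knockouts. That sum still held Wif1, which fell from 25.5 to 3.81 CPM. Nfatc1 (38.5 and 44.3 CPM), Tbx20 (17.1 and 13.6 CPM), Prg4 and Cldn11 each overlapped between the groups. Of the cardiomyocyte markers, Actn2 (4.47 and 7.65 CPM) and Ryr2 (127 and 180 CPM) were higher, and the other 5 summed to only 1.43 to 3.19 and 1.40 to 1.84 CPM. The macrophage (22.7 to 27.5 and 8.91 to 25.4 CPM) and Schwann cell markers (3.85 to 6.36 and 3.64 to 8.54 CPM) overlapped between the groups. Skeletal muscle markers were low, at 3.77 to 4.42 and 3.29 to 3.47 CPM without overlap, and none of the 3 tested passed the FDR. The part of these cells in the lower Acan, Sox9, Comp and Hapln1 was not tested.

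Genes of the same pathways were examined as lists from textbook knowledge. Over 8 lists, 103 of 141 further genes were tested. Of these, 22 passed the FDR (21.4%, beside 7.56% of all genes), with 11 higher and 11 lower. The lists were drawn up with earlier results of these data known, so this share describes the listed genes and is no evidence about them. The FDR here is that of the edgeR quasi-likelihood test with Benjamini-Hochberg adjustment over all tested genes. The count was lower whichever library was left out. It was 8 without iSM KO 1 or without iSM KO 2, and 12 without Control 3. It was 14 without Control 1, 15 without iSM KO 3 and 21 without Control 2. Such fits hold fewer libraries and have less power, so a lower count does not show that the calls rest on single libraries. Of the 22, 7 passed in each of the 6 fits without 1 library and the 6 other alternatives, namely Cd44, Runx1, Matn2, Chst3, Xylt1, Adamts8 and Timp4.

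Hyaluronan, to which the lecticans attach, had 1 changed gene on its side. Cd44, the main cell-surface receptor of hyaluronan, rose from 31.8 ± 5.84 to 103 ± 12.7 CPM, with a log2 fold change of 1.70 (SE 0.14, FDR 2.51e-04). The other 9 tested genes of hyaluronan synthesis, turnover and binding did not pass. Among them, Ugdh, which makes the UDP-glucuronate that hyaluronan and chondroitin sulfate are built from, came nearest, at 24.3 ± 1.86 and 18.8 ± 1.15 CPM without overlap (FDR 0.052). The count of the list was 2 with DESeq2 and without Control 2.

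Among 8 other tested SOX genes only Sox4, a factor of progenitor cells, passed, rising from 18.8 ± 1.02 to 26.1 ± 3.92 CPM (FDR 0.0414), and it passed in 1 of the 6 fits that left out a library, the FDR reaching 0.130 without iSM KO 1 and 0.0775 to 0.112 without any control or iSM KO 2. The endothelial factors Sox7, Sox17 and Sox18 had log2 fold changes of -0.66, -0.77 and -0.51 and did not pass. Of 26 tested regulators of chondrogenesis, Runx1 rose from 8.01 ± 0.71 to 14.0 ± 0.72 CPM (FDR 0.00304). Fgfr3, a receptor that restrains growth plate chondrocytes, fell from 19.7 ± 4.96 to 9.90 ± 2.38 CPM (FDR 0.0240), and missed the FDR without Control 2 (0.053), Control 3 (0.0715), iSM KO 1 (0.0845) or iSM KO 2 (0.0996). The other 24 did not pass. None of the 4 tested cartilage collagens passed.

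The list of matrilins and other cartilage matrix proteins had 5 lower and 1 higher of 12 tested genes, with a median log2 fold change of -0.56. Matn2, a widely expressed matrilin, fell from 16.5 ± 3.08 to 7.38 ± 0.15 CPM (FDR 0.00179). Cilp2, a protein of the cartilage intermediate layer, fell by 1.74 on the log2 scale (FDR 0.0116, and 0.0569 without iSM KO 2). Mia, a small protein secreted by chondrocytes, fell from 1.94 ± 0.54 to 0.25 ± 0.21 CPM (FDR 0.0284), missing the FDR without Control 1 (0.0572), Control 3 (0.0952), iSM KO 1 (0.0524) or iSM KO 2 (0.088). Clec3b (tetranectin) and Omd (osteomodulin), a keratan sulfate proteoglycan of bone, were also lower (FDR 0.0348 and 0.0404). Both missed the FDR without Control 1 (0.101 and 0.0848), Control 3 (0.0939 and 0.0732), iSM KO 1 (0.114 and 0.0979) or iSM KO 2 (0.133 and 0.156), and Omd also without iSM KO 3 (0.0732). With limma-voom on all libraries they also missed it (0.0701 and 0.0992). Clec3b is also on the fibroblast list, whose 8 markers had negative fold changes as given above, and the part of those cells in this list was not tested. Prelp, a leucine-rich proteoglycan that anchors basement membranes, rose from 473 ± 95.03 to 734 ± 19.4 CPM (FDR 0.0239), and missed the FDR at 0.0566 to 0.0994 without any library other than Control 1.

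The enzymes that build the chondroitin sulfate chains of the lecticans showed 4 higher and 1 lower of 27 tested genes. Xylt1, which starts the chains on the core protein, rose from 21.6 ± 1.54 to 47.1 ± 5.18 CPM, with a log2 fold change of 1.13 (SE 0.10, FDR 3.84e-04). Chst3, the chondroitin 6-O-sulfotransferase, rose from 62.3 ± 5.57 to 98.2 ± 10.5 CPM (FDR 0.00585). Chst15, which adds the second sulfate of chondroitin sulfate E, fell from 8.35 ± 0.91 to 4.28 ± 1.09 CPM (FDR 0.0188), and missed the FDR without Control 1 (0.0568), iSM KO 1 (0.0513) or iSM KO 2 (0.0822). Chst11 and Ust were higher (FDR 0.0344 and 0.0353) but each passed in only 1 of the 6 fits without a library: Chst11 missed at 0.0836 to 0.114 without any library other than Control 2, and Ust at 0.0502 to 0.164 without any other than Control 1. The median of the list was -0.032.

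Of the proteases that cleave lecticans and their inhibitors, 3 were higher and 4 lower among 14 tested. Timp4, a metalloproteinase inhibitor of the cardiovascular system, fell from 10.9 ± 1.48 to 2.34 ± 0.31 CPM, with a log2 fold change of -2.22 (SE 0.17, FDR 1.31e-04). Adamts8 rose from 39.1 ± 6.24 to 83.0 ± 9.51 CPM (FDR 0.00139). The aggrecanase Adamts5 fell from 43.1 ± 3.65 to 32.6 ± 2.79 CPM (FDR 0.0364) and the versican-cleaving Adamts15 fell from 47.6 ± 2.69 to 33.2 ± 3.91 CPM (FDR 0.0138). Adamts15 missed the FDR without iSM KO 1 (0.0643), and Adamts5 missed it without Control 1 (0.108), iSM KO 1 (0.0768), iSM KO 2 (0.169) or iSM KO 3 (0.0665). Timp1, Mmp14 and Htra1 were the other genes past the FDR, at 0.0319, 0.0489 and 0.049, and passed in 1, 2 and 0 of the 6 fits without a library, with an FDR of 0.0556 to 0.213 where they missed. Timp1 passed only without Control 2, and Mmp14 without Control 2 or iSM KO 3. On all libraries Mmp14 missed with limma-voom (0.0524) and filterByExpr (0.0518), and Htra1 with DESeq2 size factors (0.0531), filterByExpr (0.0542) and no filter on low counts (0.0774).

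**Figure D5:**
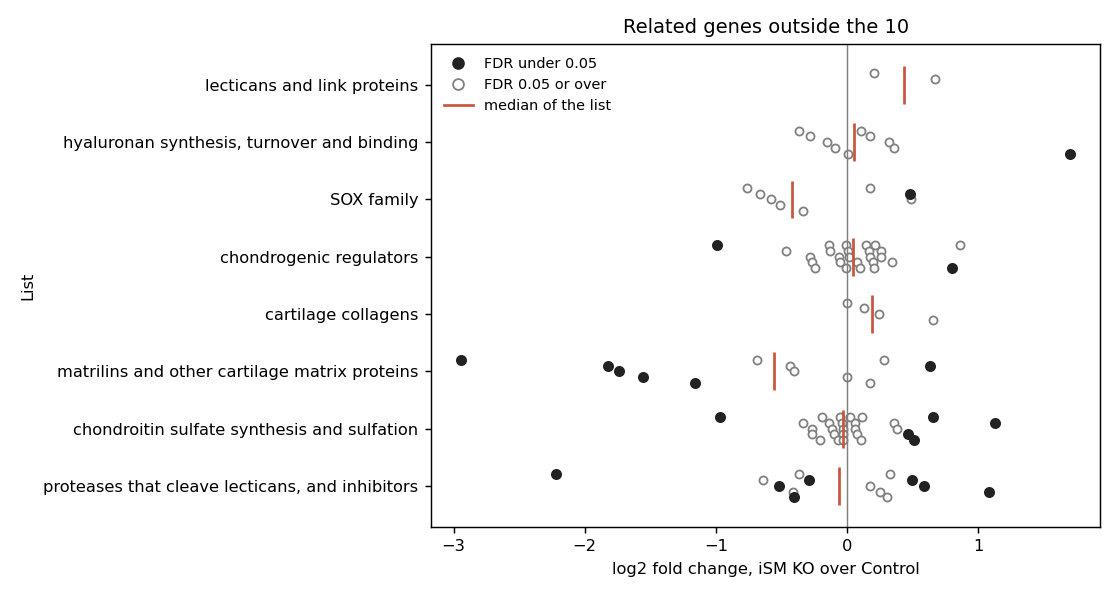
Log2 fold change of Prdm16 iSM KO over control for each tested gene of the 8 lists outside the 10 members, filled where the FDR was under 0.05, with the median of each list as a red line. Cd44, Xylt1, Adamts8 and Runx1 lie to the right, and the lower genes of the matrix list and Timp4 lie to the left.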

How the data were processed

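RNA from 6 mouse aortas (3 control, 3 Prdm16 iSM KO) was sequenced after removal of ribosomal RNA. The authors aligned and quantified the reads on mm10 with Illumina DRAGEN and deposited estimated counts per gene, neither normalized nor filtered. How DRAGEN divides reads between overlapping genes is not given in the sources used here. Estimated counts were rounded to whole numbers here, and the filter of the study was applied, which asks for a count above 10 in every library of the controls or of the knockouts. Libraries were scaled by TMM in edgeR 4.0.16 (R 4.3.3), and groups were compared by its quasi-likelihood test with Benjamini-Hochberg adjustment over all 16565 tested genes. A gene counted as changed at an FDR under 0.05 with an absolute log2 fold change above 1. DESeq2 1.42.0, limma-voom 3.58.1, DESeq2 size factors, other filters, a replicate block and each library left out served as alternatives. Levels per kilobase used the longest basic coding transcript of GENCODE M21, and promoters came from RefSeq. No pair of libraries agreed within sampling noise. By the chi-square of their counts per degree of freedom, pairs of knockouts lay at 10.7 to 17.0 and pairs of controls at 40.7 to 60.7. Pairs of a control and a knockout lay at 44.6 to 70.3. Control 3 had the lowest depth and 59.0% of its counts in protein-coding genes, against 64.6% to 67.6% in the other libraries. Depth, 24911609 to 40460467 counts, sets the counting error of low genes.

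The members and lists were chosen with earlier results of these data known. In each list, genes past the FDR were named, at most 6 in order of FDR, with a few others for their role. The GC box, the ratio of Cytl1 to endothelial markers, the genes Ugdh, Sox7, Sox17, Sox18, Pi16, Dcn and Myocd and the further protease gene Htra1 were picked after the values were seen.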

Additional observations from a re-analysis of the deposited data

How the results depend on the processing

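The count of members past both limits was 4 in all 12 alternatives run, which, for genes selected on this contrast in these libraries, describes the fits and lends them no support. No member reversed its direction. Log2 fold changes ranged from -3.43 to -2.86 for Hapln1, -1.79 to -1.49 for Sox9, -1.72 to -1.23 for Comp, -1.31 to -1.16 for Acan, 0.21 to 0.51 for Vcan, 0.22 to 1.24 for Chad and -1.09 to -0.19 for Cytl1. Over all genes, 232 were higher and 229 lower. With no filter on low counts 349 were lower, and leaving out 1 library gave 128 (without iSM KO 2) to 317 (without iSM KO 3) lower genes. The lower count was 133 without iSM KO 1. The cause was not tested.

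The 22 related genes past the FDR became 8 to 21 when 1 library was left out. Same-numbered samples did not deviate together (correlations of -0.13, -0.046 and -0.11), and no sample correlated best with its own number, so the replicate block is not a pairing. With it, 188 genes were higher, 165 lower, and 4 members and 13 related genes passed. With the block, Sox4, Clec3b, Mia, Chst11, Ust, Adamts5, Timp1, Mmp14 and Htra1 missed the FDR. Per-kilobase levels of Sox5, Sox6 and Comp depended on the transcript length used, with Comp at 6.38 CPM per kilobase in the controls over the union of its exons. The order of the control means of Acan and Vcan also changed with this length. Depth limits Matn3 and the undetected cartilage genes.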
